A study of Mus musculus with 6 samples.

Results

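The 10 genes described here encode enzymes that oxidise or reduce steroids in liver. They were chosen by gene name from the 54532 genes of the deposited count table, and all 10 were found. The set comprises the 3β-hydroxysteroid dehydrogenases *Hsd3b2*, *Hsd3b3*, *Hsd3b5* and *Hsd3b7*, the 11β-hydroxysteroid dehydrogenase *Hsd11b1*, the 17β-hydroxysteroid dehydrogenase family members *Hsd17b2*, *Hsd17b6* and *Hsd17b13*, the 5α-reductase *Srd5a1* and the 5β-reductase *Akr1d1*. Liver RNA was sequenced from 3 mice lacking the lysosomal lysolipid transporter SPNS1 after birth (g*Spns1*-cKO) and 3 control mice, with 1 library per mouse and no pooling stated. The g*Spns1*-cKO mice carried floxed *Spns1* alleles and a tamoxifen-dependent Cre at the Rosa26 locus, which is active in cells throughout the body, and exon 3 was deleted by 50 mg/kg tamoxifen on postnatal days 11, 13 and 15. According to the methods the controls of this line were *Spns1* fl/fl littermates, whereas the sample labels give them as WT, and whether the control mice received tamoxifen is not given in the sources used here. The labels give neither the age at collection nor the sex, and because the deletion was not restricted to hepatocytes, effects arising inside and outside the liver cannot be told apart.

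Steroid dehydrogenases and reductases switch hormones between active and inactive forms by moving hydrogen at single carbons of the steroid ring. In liver they clear androgens, estrogens and corticosteroids from the blood and take part in building bile acids from cholesterol. Several of them are expressed at different levels in male and female mouse livers, and *Hsd3b5* is a well-known male-predominant transcript. Many belong to gene families that arose by tandem duplication, so their sequences resemble each other.

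The libraries held between 30350002 and 35295611 counts, so that a floor of 3 counts corresponded to between 0.0763 and 0.118 CPM (a count scaled to a fixed library total, here corrected by TMM, a factor per library that aligns most genes). *Spns1* itself had 1008, 1562 and 875 counts in controls, against 642, 1175 and 698 in g*Spns1*-cKO livers. Its fitted log2 fold change was -0.87 (SE 0.25, adjusted p = 0.0300, edgeR's quasi-likelihood test, adjusted by Benjamini-Hochberg over all genes and used throughout). The groups did not overlap in CPM for this gene, but a count over the whole gene does not measure the loss of 1 exon. All 6 livers contained Y-linked transcripts (*Ddx3y*, 1731 to 2568 counts), and *Xist*, expressed from the inactive X chromosome of females, had at most 5 counts. By these transcripts all 6 livers came from males. The 12 hepatocyte markers were present in every liver, at a summed level of 123816 to 134555 CPM in controls and 73553 to 83916 CPM in g*Spns1*-cKO, where 8 were lower and 0 higher (median log2 fold change -0.75). Markers of several other cell types were higher, namely 7 of 7 tested cholangiocyte markers and 10 of 10 macrophage markers. So were 8 of 9 stellate cell markers and 6 of 8 endothelial markers. Of 6 neutrophil markers only 3 had enough counts to be tested, and these 3 were higher. Some of these markers were tested only through the g*Spns1*-cKO livers, so that only a rise could be called. Among them were *Cldn4* (mean 0.0108 CPM in controls) and *Retnlg* (0.205 CPM). Tested lymphocyte markers (1 of 8 higher, 1 lower) and erythroid markers (2 of 5 higher, 1 lower) moved in both directions. The part of these cell markers in the results for the steroid enzymes was not tested. In whole liver, fewer cells of a type and less RNA per cell cannot be told apart.

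Of the 10 enzymes, 9 had enough counts to be tested, and the 1 that did not was *Hsd3b7*. In g*Spns1*-cKO livers 5 fell, namely *Hsd3b5*, *Srd5a1*, *Hsd3b2*, *Hsd17b2* and *Hsd3b3*, and 1 rose, *Hsd17b6*. *Hsd11b1*, *Hsd17b13* and *Akr1d1* did not pass the test. Among all 15449 genes tested, 20.5% were called lower and 21.3% were called higher at an adjusted p under 0.05. The median log2 fold change was -1.04 over the 9 tested enzymes and 0.01 over all tested genes. Control and g*Spns1*-cKO livers did not overlap in CPM for 7 of the 9, 6 lower and 1 higher, where 54.0% of all tested genes showed no overlap. Each of the 6 calls held in each of 6 fits that left out 1 library.

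**Figure D1:**
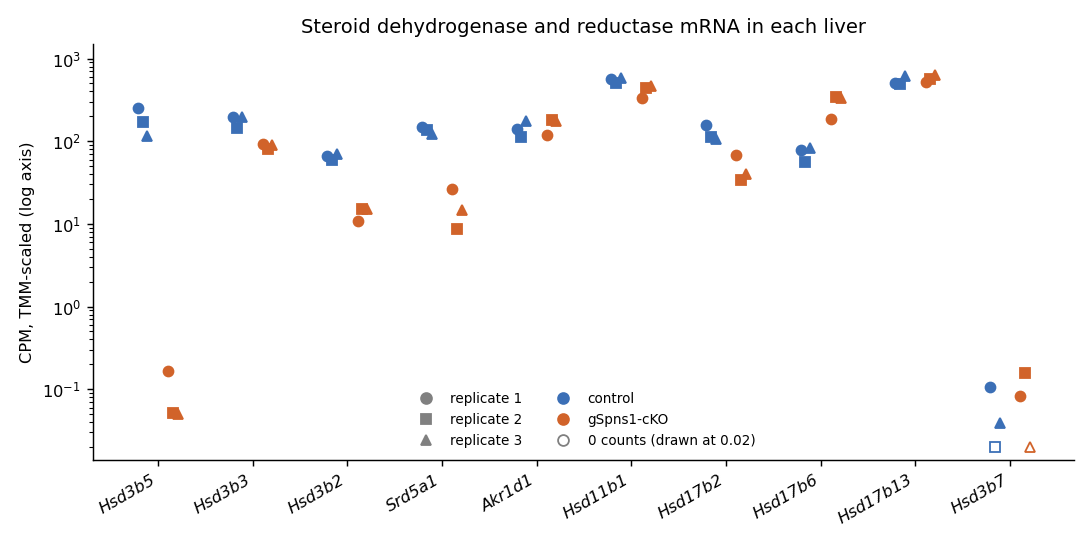
Level of each of the 10 transcripts in each liver, in TMM-scaled CPM on a logarithmic axis, with controls in blue and g*Spns1*-cKO in orange and the marker shape giving the replicate number. *Hsd3b5* lay at 115 to 252 CPM in controls and at or below 0.167 CPM in g*Spns1*-cKO, *Hsd17b6* was higher in all 3 g*Spns1*-cKO livers, and *Hsd17b13* and *Akr1d1* overlapped between the groups.

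All 3 tested 3β-hydroxysteroid dehydrogenases of chromosome 3 fell. *Hsd3b5* (ENSMUSG00000038092, chr3:98618634-98630252, minus strand, GRCm38) encodes an enzyme that in mouse liver works mainly as a 3-ketosteroid reductase, inactivating androgens. It had 7088, 5249 and 2910 counts in controls and 6, 2 and 2 counts in g*Spns1*-cKO livers. The lowest control thus stood far above the highest g*Spns1*-cKO liver, although the controls themselves ranged widely. The mean was 179 ± 68.9 CPM in controls and 0.0899 ± 0.0665 CPM in g*Spns1*-cKO (SD, n = 3). Taken over the summed counts of each group, 15247 and 10, the ratio of control to g*Spns1*-cKO per scaled library was 2058, with an exact 95% interval of 1119 to 4292 that covers counting error only. The fitted log2 fold change was -10.93 (SE 0.53, adjusted p = 3.82e-05, edgeR). Without g*Spns1*-cKO replicate 1, which held 6 of the 10 counts, it was -11.66.

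*Hsd3b2* (ENSMUSG00000063730, chr3:98709255-98724543, minus strand) and *Hsd3b3* (ENSMUSG00000062410, chr3:98741523-98763127, minus strand) encode NAD-dependent enzymes that oxidise the 3β-hydroxyl group and shift the ring double bond, and both are known from liver and kidney. *Hsd3b2* had 1845, 1821 and 1785 counts in controls and 393, 581 and 601 in g*Spns1*-cKO livers. The groups stood apart, and the spread within each was small. *Hsd3b2* was 4.72-fold lower (log2 fold change -2.24, SE 0.15, adjusted p = 5.99e-06, edgeR). *Hsd3b3* had 5561, 4464 and 4919 counts in controls and 3295, 3069 and 3542 in g*Spns1*-cKO livers. Again no g*Spns1*-cKO liver reached the lowest control, and the fall was 2.05-fold (log2 fold change -1.04, SE 0.14, adjusted p = 0.000322, edgeR).

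The reads of these 3 genes could be told apart only in part. Between *Hsd3b2* and *Hsd3b3*, 95.1% of the 1119 coding bases were identical, with a longest identical run of 228 bases. *Hsd3b5* shared 80.3% with *Hsd3b2* and 79.7% with *Hsd3b3*, with longest identical runs of 32 and 41 bases. Of all windows of 75 bases in the transcripts, 15.8% in *Hsd3b2*, 6.53% in *Hsd3b3* and 11.7% in *Hsd3b5* occurred also in transcripts of other genes, for *Hsd3b5* in *Hsd3b4* and the predicted genes *Gm10681* and *Gm4450* and not in *Hsd3b2* or *Hsd3b3*. How much of the counts of *Hsd3b2* and *Hsd3b3* belonged to the other is therefore uncertain. The coding stretch in which the 3 differ most shows how reads of *Hsd3b5* are distinguished. It covers coding bases 586 to 645, which is chr3:98711983-98712042 in *Hsd3b2*, chr3:98742361-98742420 in *Hsd3b3* and chr3:98619484-98619543 in *Hsd3b5* (GRCm38, minus strand, written 5′ to 3′ from GENCODE M21 transcripts). Capitals mark the 34 positions at which the 3 are not all the same.
Hsd3b2: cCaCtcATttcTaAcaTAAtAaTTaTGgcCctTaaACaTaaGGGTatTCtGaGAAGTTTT
Hsd3b3: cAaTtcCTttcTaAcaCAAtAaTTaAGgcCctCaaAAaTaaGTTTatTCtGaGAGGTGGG
Hsd3b5: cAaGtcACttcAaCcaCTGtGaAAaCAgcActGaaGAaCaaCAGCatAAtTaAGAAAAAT

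*Hsd3b3* and *Hsd3b5* also resemble each other upstream of their RefSeq start sites, although *Hsd3b3* fell 2.05-fold and *Hsd3b5* fell to 10 counts in all. The 250 bases before each start are shown to set the similarity beside that difference, from RefSeq on GRCm38.p6, minus strand and 5′ to 3′. The windows are chr3:98763129-98763378 for *Hsd3b3* and chr3:98645535-98645784 for *Hsd3b5*, the latter ending 15282 bases upstream of the GENCODE start. Capitals mark bases that are not identical in the local alignment of the windows or lie outside it. In lower case are 151 identical bases, 74.8% of the 202 alignment columns.
Hsd3b3: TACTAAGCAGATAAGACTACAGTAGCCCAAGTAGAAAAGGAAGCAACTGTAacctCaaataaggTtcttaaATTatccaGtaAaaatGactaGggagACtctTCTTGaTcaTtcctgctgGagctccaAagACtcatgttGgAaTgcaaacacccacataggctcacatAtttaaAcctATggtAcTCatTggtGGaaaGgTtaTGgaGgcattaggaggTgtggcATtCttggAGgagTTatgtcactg
Hsd3b5: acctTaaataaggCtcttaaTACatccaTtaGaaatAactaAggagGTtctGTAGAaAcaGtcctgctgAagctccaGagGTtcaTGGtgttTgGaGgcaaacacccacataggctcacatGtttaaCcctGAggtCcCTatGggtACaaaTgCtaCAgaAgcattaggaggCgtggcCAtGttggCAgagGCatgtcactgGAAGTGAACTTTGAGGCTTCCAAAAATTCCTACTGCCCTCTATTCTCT

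Of the other genes of this cluster, *Hsd3b1* had 12 counts and *Hsd3b4* had 5 over the 6 libraries, and *Hsd3b6* had 0. The list for this cluster held 8 genes, of which 6 were found by name among the counted genes, and *Hsd3b8* and *Hsd3b9* were not analysed here. *Hsd3b1* to *Hsd3b6* together took 0.0446%, 0.0327% and 0.0317% of all counts in controls and 0.0119%, 0.0112% and 0.0123% in g*Spns1*-cKO livers. The mean was 3.08-fold lower in g*Spns1*-cKO, and the groups did not overlap (two-sided exact permutation p = 0.1, the smallest that 3 against 3 allows). The makeup of the cluster differed too. *Hsd3b5* gave 48.9%, 45.5% and 30.3% of the cluster's counts in controls and 0.162%, 0.0547% and 0.0482% in g*Spns1*-cKO livers. *Hsd3b3* made up the largest share there, 86.1 ± 2.74% against 42.7 ± 7.29% in controls (SD, n = 3, two-sided exact permutation p = 0.1). The share of *Hsd3b2* was 15.7 ± 2.92% in controls and 13.7 ± 2.72% in g*Spns1*-cKO, and these overlapped (two-sided exact permutation p = 0.5, n = 3).

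**Figure D2:**
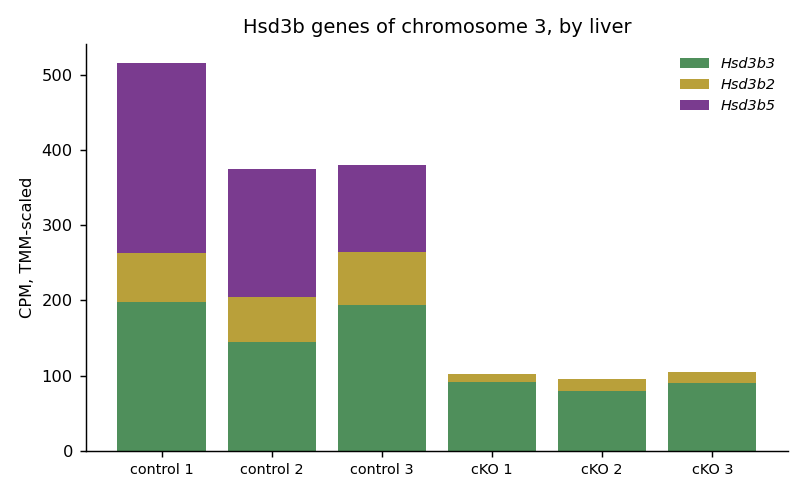
Stacked levels of *Hsd3b3*, *Hsd3b2* and *Hsd3b5* in each liver, in TMM-scaled CPM, with 1 bar per liver. The bars stood at 374 to 515 CPM in controls, where *Hsd3b5* took the top part, and at about 95 to 105 CPM in g*Spns1*-cKO, where no *Hsd3b5* part is visible.

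*Hsd3b7* (ENSMUSG00000042289, chr7:127800604-127803802, plus strand) encodes the 3β-dehydrogenase of the bile acid pathway, which acts on 7α-hydroxylated sterols. It had 3, 0 and 1 counts in controls and 3, 6 and 0 in g*Spns1*-cKO livers. Both groups were at or near the floor, so no fold is given. By the annotation, 62.0% of its exon bases are also exons of *Gm49388* on the same strand and 62.4% are exons of *9430064I24Rik* on the opposite strand, and 76.7% of its 75-base windows occur in transcripts of other genes. These overlapping genes had 5 and 37 counts over all libraries. The level of *Hsd3b7* cannot be read from this table, and whether its reads were dropped as shared between genes was not tested.

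The reductases of Δ4-3-ketosteroids, which saturate the same ring double bond in opposite orientations, differed from each other. *Srd5a1* (ENSMUSG00000021594, chr13:69573449-69611442, minus strand) encodes steroid 5α-reductase type 1, which turns testosterone into dihydrotestosterone and also reduces progesterone and corticosterone. It had 4211, 4222 and 3115 counts in controls and 954, 337 and 586 in g*Spns1*-cKO livers. The highest g*Spns1*-cKO liver, replicate 1, remained well below the lowest control. *Srd5a1* was 8.17-fold lower (137 ± 13.3 against 16.7 ± 9.0 CPM, SD, n = 3; log2 fold change -3.03, SE 0.43, adjusted p = 0.00374, edgeR). Without g*Spns1*-cKO replicate 1 the log2 fold change was -3.53.

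*Akr1d1* (ENSMUSG00000038641, chr6:37530173-37568815, plus strand) encodes the 5β-reductase that inactivates steroid hormones and reduces intermediates of bile acid synthesis. It had 3916, 3491 and 4426 counts in controls and 4262, 6923 and 6855 in g*Spns1*-cKO livers. On the CPM scale the groups overlapped, at 142 ± 30.9 and 158 ± 34.1 CPM (SD, n = 3). The log2 fold change was 0.15 (SE 0.20, adjusted p = 0.583, edgeR). It became 0.60 with an adjusted p of 0.0252 when edgeR scaled by library size alone, a setting that moved the median of all genes to 0.46.

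A ratio of counts per kilobase within a liver does not depend on the scaling of libraries. The log2 ratio of *Akr1d1* to *Srd5a1* was -0.10, -0.27 and 0.51 in controls and 2.17, 4.37 and 3.56 in g*Spns1*-cKO livers. The transcripts thus stood near equality in controls, and the 5β-reductase stood above the 5α-reductase in every g*Spns1*-cKO liver (two-sided exact permutation p = 0.1, n = 3). Of the exon bases of *Srd5a1*, 16.4% are also exons of *Gm17108* on the same strand, which had 28 counts over all libraries. Whether reads of *Srd5a1* were dropped as shared, which would lower its level per length, was not tested. In controls the other 5α-reductases were scarcer, and in g*Spns1*-cKO livers *Srd5a2* was so throughout but *Srd5a3* was not. *Srd5a2*, the type 2 enzyme, had 77 to 92 counts in controls and 57 to 72 in g*Spns1*-cKO and fell (log2 fold change -0.81, SE 0.24, adjusted p = 0.0196, edgeR), a call lost without control replicate 1 (adjusted p = 0.0548, edgeR) or without g*Spns1*-cKO replicate 3 (0.0755). *Srd5a3*, whose known role is polyprenol reduction for protein glycosylation, had 371, 429 and 322 counts in controls and 745, 702 and 808 in g*Spns1*-cKO livers and rose (log2 fold change 0.58, SE 0.11, adjusted p = 0.00284, edgeR). Its log2 ratio to *Srd5a1* was -4.04 ± 0.13 in controls and -0.29 ± 0.71 in g*Spns1*-cKO (SD, n = 3, two-sided exact permutation p = 0.1).

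**Figure D3:**
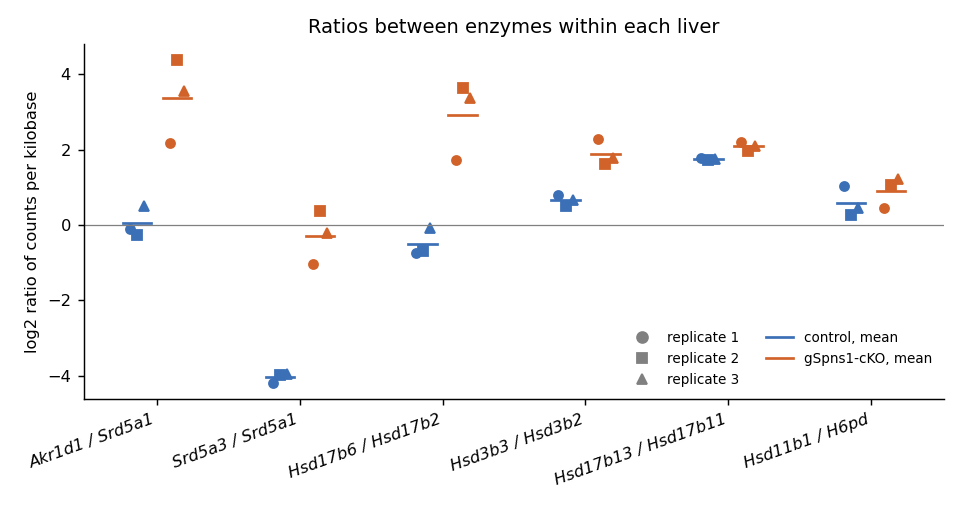
Log2 ratios of counts per kilobase between pairs of enzymes within each liver, with controls in blue, g*Spns1*-cKO in orange, horizontal lines at the group means and marker shapes for the replicate number. The first 5 pairs did not overlap between the groups, and the ratio of *Hsd11b1* to *H6pd* did.

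The promoter of *Srd5a1* is shown as the counterpart to those of the *Hsd3b* genes, since it is rich in G and C (64.8% of 250 bases, against 41.2% in *Hsd3b3* and 45.2% in *Hsd3b5*). The window is chr13:69611464-69611713 (RefSeq, GRCm38.p6, minus strand, 5′ to 3′), and capitals mark the matches to the GC box GGGCGG, which was searched on both strands and occurs in 32.7% of the 32851 RefSeq promoters of this length.
Srd5a1: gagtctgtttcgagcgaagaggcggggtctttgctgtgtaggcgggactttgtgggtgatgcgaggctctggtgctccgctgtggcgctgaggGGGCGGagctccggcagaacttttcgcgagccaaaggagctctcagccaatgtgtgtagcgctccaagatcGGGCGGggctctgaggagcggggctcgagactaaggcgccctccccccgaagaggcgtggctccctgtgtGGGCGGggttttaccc

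Other motifs were searched in the same way on both strands of the 250 bases before each member's RefSeq start. For *Hsd11b1* that start lies 21715 bases downstream of the GENCODE start. Positions count back from the start site to the leftmost base of a match. The STAT5 motif TTCNNNGAA, present in 7.02% of all promoters, was found only before *Hsd3b7*, at position -21. A GC box was also found before *Hsd3b7*, at position -54. The steroid receptor half-site AGAACA (16.1% of all promoters) was found before *Hsd3b2* at position -246. The nuclear receptor half-site AGGTCA (14%) was found before *Akr1d1* at positions -232 and -210 and before *Hsd17b13* at position -96. The TATA box TATAAA (12.4%) was found before none of them. No promoter entry was matched for *Hsd17b2*.

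The 17β-hydroxysteroid dehydrogenase family moved in both directions. *Hsd17b2* (ENSMUSG00000031844, chr8:117701904-117759027, plus strand) encodes the enzyme that oxidises estradiol to estrone and testosterone to androstenedione. It had 4465, 3437 and 2708 counts in controls and 2457, 1302 and 1568 in g*Spns1*-cKO livers. The groups did not overlap, and replicate 1 was again the g*Spns1*-cKO liver closest to the controls. *Hsd17b2* was 2.66-fold lower (log2 fold change -1.41, SE 0.30, adjusted p = 0.0109, edgeR), and its log2 fold change without g*Spns1*-cKO replicate 1 was -1.77.

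*Hsd17b6* (ENSMUSG00000025396, chr10:127990936-128007611, minus strand) encodes an enzyme with 3α-hydroxysteroid and retinol dehydrogenase activity that can regenerate dihydrotestosterone from androstanediol. It had 2204, 1741 and 2104 counts in controls and 6673, 13304 and 13265 in g*Spns1*-cKO livers. All 3 g*Spns1*-cKO livers stood above all controls, with replicate 1 the lowest of them. The rise was 3.99-fold (72.6 ± 14.2 against 290 ± 90.5 CPM, SD, n = 3; log2 fold change 2.00, SE 0.26, adjusted p = 0.000801, edgeR). Of its 75-base windows, 10.4% also occur in transcripts of related *Rdh* genes of the same region. The log2 ratio per length of *Hsd17b6* to *Hsd17b2* was -0.73, -0.69 and -0.08 in controls and 1.73, 3.64 and 3.37 in g*Spns1*-cKO livers, so the order of the pair was reversed in every liver of the g*Spns1*-cKO group (two-sided exact permutation p = 0.1, n = 3).

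*Hsd17b6* lies at one end of a run of short-chain dehydrogenase genes on chromosome 10 that begins with *Rdh9*. This region was looked at after the values were seen. It holds 12 genes of which 6 were tested, and they did not move together. *Rdh9*, a retinol and 3α-hydroxysteroid dehydrogenase, rose with a log2 fold change of 1.71 (SE 0.24), although 64.1% of its exon bases are shared with *Rdh16f1*, which had 0 counts. *Rdh16f2* was higher by 0.57 (SE 0.17) on the log2 scale (adjusted p = 0.0195, edgeR), a call lost on leaving out any 1 library other than g*Spns1*-cKO replicate 1 (adjusted p 0.0527 to 0.0769, edgeR). *Rdh7* and *Sdr9c7* fell, with log2 fold changes of -1.03 (SE 0.14) and -1.21 (SE 0.23). *Rdh16* overlapped between the groups (log2 fold change -0.11, SE 0.41, adjusted p = 0.859, edgeR).

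*Hsd17b13* (ENSMUSG00000034528, chr5:103955440-103977410, minus strand) encodes a lipid droplet protein with retinol dehydrogenase activity, known for a link to fatty liver disease. It had 14204, 15082 and 15736 counts in controls and 18637, 21433 and 25090 in g*Spns1*-cKO livers. On the CPM scale the groups overlapped, at 539 ± 72.1 and 571 ± 61.1 CPM (SD, n = 3). The log2 fold change was 0.09 (SE 0.15, adjusted p = 0.684, edgeR), and scaling by library size alone gave 0.53 with an adjusted p of 0.0111 in edgeR. Its neighbour and closest relative *Hsd17b11*, likewise a lipid droplet protein, also did not pass (-0.25, SE 0.15, adjusted p = 0.210, edgeR). The log2 ratio per length of *Hsd17b13* to *Hsd17b11* was 1.74 ± 0.03 in controls and 2.08 ± 0.13 in g*Spns1*-cKO, without overlap (SD, n = 3, two-sided exact permutation p = 0.1). Of 15 lipid droplet protein genes tested, *Hsd17b11* among them, 7 were lower and 1 higher. The lower genes included *Fitm1*, which helps droplets form (log2 fold change -4.86), the lipase inhibitor *G0s2* (-3.60) and the fat storage protein *Cidec* (-3.34), and the higher gene was the droplet coat protein *Plin3* (1.16).

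*Hsd11b1* (ENSMUSG00000016194, chr1:193221634-193264075, minus strand) encodes the enzyme that regenerates active corticosterone inside cells, using NADPH made by the product of *H6pd*. It had 15756, 15600 and 14576 counts in controls and 11901, 16789 and 18437 in g*Spns1*-cKO livers, and in CPM it lay between 506 and 576 in controls and between 331 and 469 in g*Spns1*-cKO. The CPM of the groups did not overlap, but the difference did not pass the test (log2 fold change -0.41, SE 0.16, adjusted p = 0.0590, edgeR). It passed with limma-voom (adjusted p = 0.0418) and with DESeq2 (adjusted p = 0.0223), whereas scaling by library size alone gave a log2 fold change of 0.04. *H6pd* fell (log2 fold change -0.76, SE 0.18, adjusted p = 0.00656, edgeR), and the log2 ratio of *Hsd11b1* to *H6pd* per length overlapped between the groups at 0.59 ± 0.40 and 0.91 ± 0.40 (SD, n = 3, two-sided exact permutation p = 0.4). *Hsd11b2*, which inactivates corticosterone, had 0 counts in all controls and 2, 4 and 1 in g*Spns1*-cKO livers. Of 14 genes known to respond to glucocorticoids, 2 were higher (*Cdkn1a*, log2 fold change 1.97, and *Sgk1*, 1.39) and 4 lower, among them *Angptl4* (-2.86) and *Pck1* (-1.63), with a median of -0.17.

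Compared per length, the order of the enzymes changed. In RPKM (TMM-scaled CPM per kilobase of gene length), *Hsd17b13* was the highest in controls at 250 ± 33.4, followed by *Hsd11b1* at 129 ± 8.56 and *Hsd3b5* at 116 ± 44.5 (SD, n = 3). *Hsd17b2* at 65.3 ± 14.9 RPKM, *Akr1d1* at 49.2 ± 10.7, *Srd5a1* at 46.9 ± 4.58 and *Hsd17b6* at 46.1 ± 9.0 came next. *Hsd3b3* at 28.0 ± 4.62 RPKM and *Hsd3b2* at 17.6 ± 1.55 closed the list above the floor. The ranges of neighbours in this order overlapped from *Hsd11b1* down to *Hsd17b6*, while *Hsd17b13*, *Hsd3b3* and *Hsd3b2* each stood apart. In g*Spns1*-cKO livers *Hsd17b13* at 265 ± 28.3 RPKM was followed by *Hsd17b6* at 184 ± 57.4, *Hsd11b1* at 97.0 ± 17.0, *Akr1d1* at 54.5 ± 11.8 and *Hsd17b2* at 24.6 ± 9.54. *Hsd3b3* at 13.6 ± 0.987 RPKM, *Srd5a1* at 5.75 ± 3.09, *Hsd3b2* at 3.73 ± 0.670 and *Hsd3b5* at 0.0580 ± 0.0429 came last. There, of these neighbours, the ranges of *Srd5a1* and *Hsd3b2* overlapped and the rest did not.

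A wider list of 34 steroid dehydrogenases, reductases and their relatives outside the 10 had 31 genes that were listed and 23 that were tested. Of these 4 were higher, 11 lower and 8 did not pass, with a median log2 fold change of -0.53. *Dhrs9*, a 3α-hydroxysteroid and retinol dehydrogenase, had 47, 21 and 45 counts in controls and 378, 177 and 238 in g*Spns1*-cKO livers and rose most (log2 fold change 2.37, SE 0.42, adjusted p = 0.00275, edgeR). Together with *Rdh9*, *Srd5a3* and *Rdh16f2*, described above, it made up the 4 higher genes. The lower genes fell by less than *Hsd3b2* and *Srd5a1*, with log2 fold changes between -1.27 and -0.53. They included *Akr1c19* (-1.27, SE 0.19), *Akr1c12* (-0.93, SE 0.12), *Akr1c13* (-0.89, SE 0.10) and *Akr1c14* (-0.55, SE 0.16), aldo-keto reductases encoded side by side on chromosome 13. Their neighbours *Akr1c6*, the liver 17β-hydroxysteroid dehydrogenase of that family, and *Akr1c20* did not pass (-0.41, SE 0.19, and 0.14, SE 0.17). The call of *Akr1c14* was lost without control replicate 3 (adjusted p = 0.0734, edgeR), and *Akr1c6* passed as lower without g*Spns1*-cKO replicate 1 (log2 fold change -0.56, adjusted p = 0.0362, edgeR).

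Several lower genes of the wider list are named for steroids but are known mainly for fatty acid or sterol metabolism. These were *Hsd17b4*, an enzyme of peroxisomal β-oxidation (-1.01, SE 0.14), the mitochondrial *Hsd17b10* (-0.99, SE 0.17), *Hsd17b12* of fatty acid elongation (-0.81, SE 0.18), *Hsd17b7* of cholesterol synthesis (-0.75, SE 0.22) and *Hsdl2* (-0.53, SE 0.12). *Hsd17b7* was no longer called without control replicate 1 or 2 or without g*Spns1*-cKO replicate 2 or 3 (adjusted p 0.0580 to 0.0842, edgeR). *Nsdhl*, also of cholesterol synthesis, did not pass (-0.88, SE 0.37), but did without g*Spns1*-cKO replicate 1 (-1.39, adjusted p = 6.99e-05, edgeR). With scaling by library size alone, 5 genes of this list were lower and 6 higher. The summed level of the list was 3854 to 4561 CPM in controls and 2856 to 3212 CPM in g*Spns1*-cKO.

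**Figure D4:**
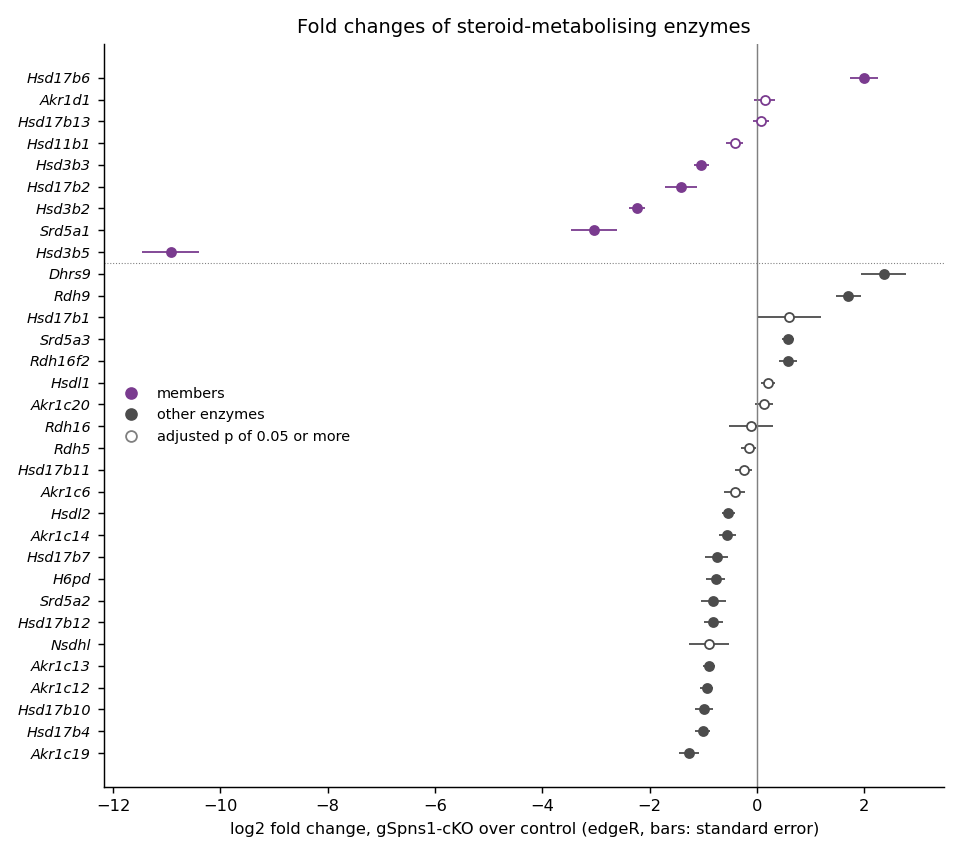
Fitted log2 fold changes of g*Spns1*-cKO over control with their standard errors for the 9 tested members in purple and 23 other steroid-metabolising enzymes in grey, with open markers where the adjusted p was 0.05 or more. *Hsd3b5* stood at -10.93, the other members lay between -3.03 and 2.00, and the other enzymes lay between -1.27 and 2.37.

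Bile acid synthesis shares *Hsd3b7* and *Akr1d1* with the steroid enzymes. Of 14 other tested genes of the pathway 11 were lower and 1 higher, with *Hsd17b4* counted here and in the wider enzyme list, with a median log2 fold change of -0.82. *Cyp7b1*, the oxysterol 7α-hydroxylase that also clears androgen and estrogen metabolites, had 10398, 12861 and 9655 counts in controls and 784, 604 and 763 in g*Spns1*-cKO livers (log2 fold change -4.36, SE 0.16, adjusted p = 1.29e-07, edgeR). The sterol 12α-hydroxylase *Cyp8b1* (-1.72, SE 0.21) and the acyl-CoA synthetase *Slc27a2* (-1.49, SE 0.14) also fell. *Cyp46a1*, a cholesterol 24-hydroxylase best known from neurons, rose from 128 to 217 counts in controls to 1712 to 3268 counts in g*Spns1*-cKO (log2 fold change 3.19, SE 0.30, adjusted p = 0.000302, edgeR). In this setting *Akr1d1*, which did not pass, stood beside genes of the pathway that were lower.

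Of 18 tested steroid receptors and regulators of these enzymes 2 were higher and 6 lower. The higher genes were *Nr0b2*, the bile acid responsive repressor SHP (log2 fold change 1.2, SE 0.22), and the prolactin receptor *Prlr* (0.61). The lower genes included the transcription factor *Onecut1* (-1.44, SE 0.47), the growth hormone receptor *Ghr* (-0.88, SE 0.18) and the growth hormone target *Igf1* (-0.79, SE 0.13). The estrogen receptor *Esr1*, the glucocorticoid receptor *Nr3c1* and *Stat5b*, which carries the growth hormone signal, did not pass (log2 fold changes 0.83, 0.11 and 0.15), and these 3 were picked for their roles with their values known. Of 10 markers of steroid-producing glands, 4 had 0 counts in all libraries, among them *Cyp11b1*, and *Cyp11a1* had at most 2 counts in each. Of the 4 that were tested 3 were lower, namely *Cyp21a1* (log2 fold change -3.56, SE 1.07), *Cyp17a1* (-1.43, SE 0.15) and *Fdx1* (-0.91, SE 0.11). The summed level of the list was 162 to 177 CPM in controls and 83.9 to 88.3 CPM in g*Spns1*-cKO. Most of it was *Fdx1*, with a mean of 137 CPM in controls and 72.9 CPM in g*Spns1*-cKO. The part of this list in the values of the steroid enzymes was not tested.

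The livers of the g*Spns1*-cKO group were not alike, and replicate 1 stood apart in several members. Of the g*Spns1*-cKO livers it was the least shifted, in the direction of the fold change, in 7 of the 9 tested members. The same held in 12 of the 23 tested genes of the wider list. Direction and not distance was compared, so replicate 1 need not be the liver nearest the controls. The share of all tested genes with replicate 1 least shifted was not computed. By distance, replicate 1 was farther from the mean of the other g*Spns1*-cKO livers than those were from each other in 56.6% of all tested genes. For replicates 2 and 3 this share was 47.1% and 32.9%, so replicate 1 stood apart beyond the members too. Among the members, it was the most shifted in *Hsd3b2* (log2 difference from the control mean -2.52 against -2.06 and -2.05) and *Hsd11b1* (-0.72 against -0.32 and -0.22). Genes known to differ between male and female mouse liver were compared in the same way. Of 16 tested male-biased genes 12 were lower and 0 higher in g*Spns1*-cKO. Of 21 female-biased genes only 13 had enough counts to be tested, and of these 8 were higher and 0 lower. Several of the 13 had enough counts only through the g*Spns1*-cKO livers, so for them only a rise could be called. The direction of this tally was thus partly fixed by the filter. Replicate 1 was the least shifted g*Spns1*-cKO liver, in the direction of the fold change, in 14 of the tested male-biased and 10 of the tested female-biased genes. Among the male-biased genes, *Mup7*, a major urinary protein gene with near-identical copies, had 73972 to 121920 counts in controls and 0 in all g*Spns1*-cKO livers. The fatty acid elongase *Elovl3* had 4150, 1777 and 2043 counts in controls and 59, 5 and 4 in g*Spns1*-cKO livers, and the transporter *Slco1a1* had 14791, 13161 and 8196 against 148, 95 and 105. Among the female-biased genes the cytochrome P450 gene *Cyp2b9* had 5, 4 and 22 counts in controls and 143, 8277 and 7057 in g*Spns1*-cKO livers, and *Cyp2a4* had 21, 4 and 10 against 161, 3319 and 3004. Replicate 1 thus held the fewest counts of both genes within the g*Spns1*-cKO group. Both were among the genes with enough counts to be tested only through the g*Spns1*-cKO livers. The part of these differences in the values of the steroid enzymes was not tested. Without replicate 1, 5 members were lower and 1 higher, as in the full set.

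**Figure D5:**
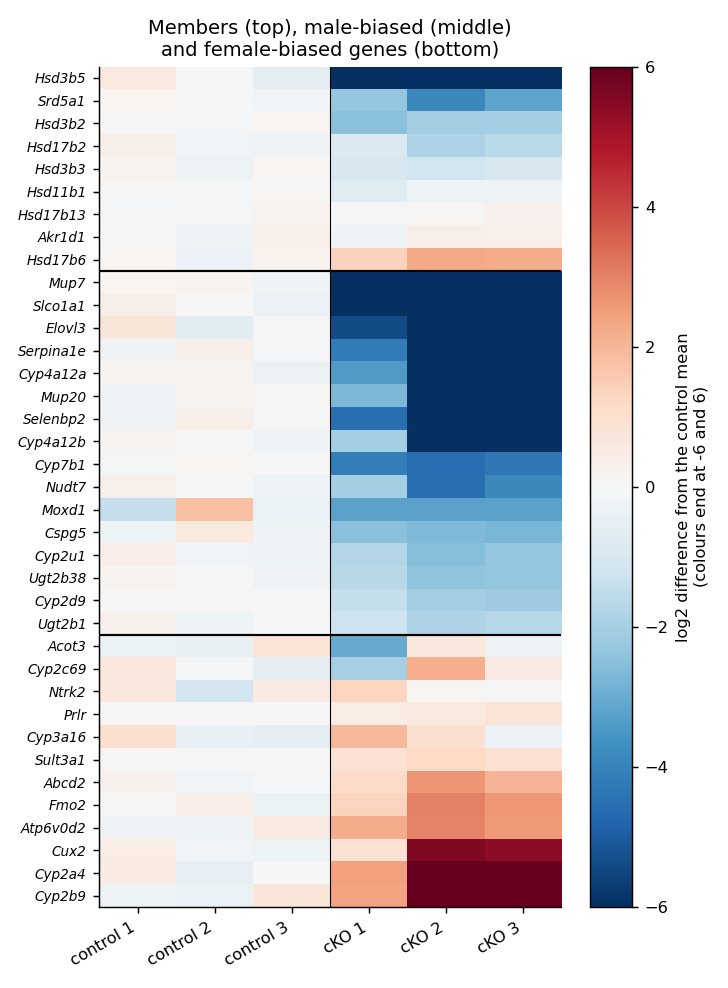
Log2 difference of each liver from the control mean (CPM with 0.5 added) for the 9 tested members at the top, 16 male-biased genes in the middle and 12 of the female-biased genes at the bottom, with blue for lower and red for higher and colours ending at -6 and 6. In replicate 1 of the g*Spns1*-cKO group (cKO 1), 7 of the 9 members and 14 of the 16 male-biased genes were less shifted than in cKO 2 and cKO 3. The shift was taken in the direction of the fold change.

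For each member the gene with the most similar profile was taken from the 7999 other genes whose mean reached 10 CPM. The measure was Pearson's r of log2 CPM, with 0.5 CPM added, over the 6 libraries. Each r is thus the highest of 7999, so a value near 1 is partly due to that choice. These r values describe 2 groups of 3 points, and where a member differed between the groups its r includes that difference. The most similar gene was *Psmb6* for *Hsd3b5* (r = 0.999), *Letmd1* for *Hsd3b2* (1.000), *Deptor* for *Hsd3b3* (0.998) and *Dnajb12* for *Srd5a1* (0.999). It was *Col5a3* for *Hsd17b2* (r = 0.997), *Prrc2c* for *Hsd17b6* (0.999) and *Chn2* for *Hsd11b1* (0.986). For *Hsd17b13* and *Akr1d1* it was *mt-Rnr2* (r = 0.963) and *Rps27* (0.983). The profiles were alike in shape and not in size, since *Psmb6* had a log2 fold change of -0.74 where *Hsd3b5* had -10.93.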

How the data were processed

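Poly(A)-selected whole-liver RNA gave 6 libraries, 3 per genotype, which were grouped by the sample labels. The authors deposited 1 table with whole-number counts per gene, not normalized, which was the only measurement tested. The submitters' processing notes name fastp, HISAT2 2.0.5, featureCounts 1.5.0-p3 and mm10, without their settings, and whether counting used strand is not given in the sources used here. The authors' table also holds FPKM values, a signal (mean normalized count) per group, and the authors' own comparison as a log2 fold change with a p-value, raw and adjusted, none of which was used. Gene lengths were taken as deposited. Of 54532 genes, 54495 were found in GENCODE M21 and 98.3% had the same coordinates, so GRCm38 positions are given.

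The count test was run with edgeR 4.0.16 in R 4.3.3 (filterByExpr, TMM, quasi-likelihood test with the robust setting, Benjamini-Hochberg adjustment over 15449 genes, threshold 0.05). The SE is the log2 fold change divided by the square root of F. CPM and RPKM use TMM-scaled library sizes and are means ± SD over 3 mice. Ratios and shares were compared by two-sided exact permutation tests, which with 3 against 3 cannot go below p = 0.1. The p-values measure the spread between these samples, and that each came from a separate mouse is inferred from 1 library per numbered animal. Intervals and floors (3 counts) cover counting error only, since reads carry no molecular identifiers. Alternatives were DESeq2 1.42.0, limma-voom (limma 3.58.1), 3 other scalings, 2 other filters, a stricter threshold, a replicate block and leaving out each library. No libraries of a group were as alike as sampling noise alone would make them. The scripts were tested on simulated data.

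The members and gene lists were chosen with earlier results of these data known. Named genes are all members, members of the wider enzyme list, the 4 most changed genes past the threshold with at least 1 CPM from the other lists, and the most similar gene per member. *Cyp11a1*, *Cyp11b1*, *Rdh7*, *Sdr9c7*, *Prlr* and 3 receptor and signalling genes were named after their values were seen. Some genes of the lists are counted but not reported by name here. Sequences were compared with Biopython 1.88 using GENCODE M21 transcripts and RefSeq promoter windows on GRCm38.p6.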

Additional observations from a re-analysis of the deposited data

How the results depend on the processing

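Of 6453 genes called, 3890 passed an adjusted p under 0.01, and between 4490 and 6429 were called when 1 library was left out. TMM factors were 0.834 to 0.873 in controls and 1.16 to 1.18 in g*Spns1*-cKO. With library size only, the median over all genes was 0.46 on the log2 scale and 88.2% of called genes were higher, against 50.9% with TMM and 64.7% with upper-quartile scaling (median 0.14). Library size only called 3 members higher, by adding *Hsd17b13* and *Akr1d1*, and 5 genes of the wider enzyme list lower in place of 11. The difference in the share of all counts held by the *Hsd3b* cluster was -0.0245 percentage points, or -0.0322 when the TMM-scaled library size was the denominator, and leaving out 1 library gave -0.0268 to -0.0204. The members called lower numbered 5, with 6 under DESeq2, limma-voom and the filter of at least 1 count (adding *Hsd11b1*), and 4 with at least 10 counts in every library, which left *Hsd3b5* untested, and 4 at an adjusted p under 0.01, where *Hsd17b2* lost its call. For single genes, 19 values lost and 11 gained a call over all alternatives, and 0 called values were reversed. Replicate numbers did not pair the mice (correlations of same-numbered deviations 0.04, 0.03 and -0.03), and with the replicate block 6099 genes were called, the counts of members were the same, and *Nsdhl* passed as lower. *Hsd3b7*, with 13 counts over all libraries, was not tested.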
